A study of Apis mellifera with 2 samples.

Results

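The alpha subunits of the nicotinic acetylcholine receptor (nAChR) were taken as every gene whose symbol begins with nAChRa in both count matrices, and 8 of the 12245 genes listed for both libraries met this rule: nAChRa1, nAChRa2, nAChRa3, nAChRa4, nAChRa6, nAChRa7, nAChRa8 and nAChRa9. The symbol nAChRa5 matched no gene and is not analysed here. RNA was counted by single-nucleus RNA sequencing in pooled brains of foraging Apis mellifera workers whose colonies were misted over several days with bromocriptine, a dopamine receptor agonist (BRC group), or with ddH2O. The sample titles speak of feeding and the treatment label of a full-body spray, and the series text gives 15 foragers per group whereas the study's methods give another number of pooled brains. Compound eyes and ocelli were removed before nuclei were prepared. Each condition is 1 library, so that treatment, colony pool, preparation, sequencing and the version of the counting software cannot be told apart. No test across samples was possible, and every interval below is a 95% interval for counting error only.

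Acetylcholine is the main fast excitatory transmitter of the insect brain. Nicotinic receptors are cation channels built from a ring of subunits around a pore. Alpha subunits carry the pair of adjacent cysteines that lies at the acetylcholine binding site, and the combination of subunits in a receptor sets its pharmacology, including its response to neonicotinoid insecticides. Kenyon cells (KC), the intrinsic neurons of the mushroom body, receive cholinergic input from olfactory projection neurons (OPN), and nAChR currents have been recorded from honeybee Kenyon cells.

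The 2 libraries differ in depth and in composition. The kept nuclei numbered 15896 in BRC and 16716 in ddH2O, with a median of 1897 and 3252.5 UMIs (unique molecular identifiers, each marking 1 captured RNA molecule), and the libraries shared 120 cell barcodes. Clusters called neuron-like from nSyb, Syt1, fne, Cac and Para held 3922 BRC and 7817 ddH2O nuclei, and clusters called glia-like from repo, bdl and the markers of glial types held 2137 and 4967. Named types were KC-like (1679 BRC and 3191 ddH2O nuclei), optic lobe cell (OLC)-like (390 and 1259), OPN-like (13 and 218), astrocyte-like glia (AST-like, 742 and 1491), surface glia (SG-like, 669 and 1399), cortex glia (CG-like, 323 and 1180) and ensheathing glia (EG-like, 190 and 392). A photoreceptor-like cluster held 410 BRC and 5 ddH2O nuclei, and cluster 6, which has no name, held 1859 and 2. Neuron-like clusters 2 and 9 have no type name. The subunit genes were kept out of the features used for clustering.

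All 5 neuron markers were lower in BRC in KC-like, OLC-like and each of the 4 glial types, whereas in the 13 OPN-like nuclei of BRC fne was higher (2405 and 2265 CPM). Their summed level in glia-like nuclei was 1236 CPM (UMIs per 1000000 UMIs of the group) in BRC and 7453 CPM in ddH2O. Neuron-like nuclei had 10344.5 and 14240 CPM, so that glia carried 11.9% of the neuronal marker level in BRC and 52.3% in ddH2O. None of the 5 markers was at 0 in any of these groups. The sum of the glial markers repo and bdl in glia-like nuclei was 2907 CPM in BRC and 1584 CPM in ddH2O. In droplet data RNA free in the suspension is counted in nuclei that did not make it, and the part of this in the results below was not tested beyond the comparisons with the neuron markers.

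The 8 genes lie on 5 chromosomes of the assembly Amel_HAv3.1 and fall into long and compact loci. nAChRa6 on chromosome 2 spans 349900 bp (3499710 to 3849609), nAChRa4 on chromosome 7 spans 264788 bp (7514673 to 7779460) and nAChRa7 on chromosome 14 spans 244157 bp (1798027 to 2042183). nAChRa1 on chromosome 9 (8017278 to 8133795) and nAChRa3 on chromosome 5 (12117944 to 12196914) are of intermediate length, at 116518 and 78971 bp. nAChRa2, nAChRa8 and nAChRa9 are short, at 3854, 3628 and 2591 bp. Members neighbour each other and the beta subunit genes: nAChRa2 (chromosome 9, 8003004 to 8006857) ends 10420 bp before nAChRa1, nAChRb2 ends 660 bp before nAChRa9 (chromosome 9, 11044376 to 11046966), and nAChRa7 ends 18155 bp before nAChRb1. nAChRa8 lies on chromosome 5 (4710530 to 4714157). RefSeq lists 10 transcripts each for nAChRa3 and nAChRa4 and 1 for nAChRa9, and the 3' counts do not separate them.

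Levels of different genes are compared only per kilobase of gene span, introns included. In neuron-like nuclei of the BRC library the order was nAChRa6 (16.4 CPM per kb), nAChRa2 (9.18), nAChRa8 (8.92), nAChRa7 (6.08), nAChRa4 (4.97), nAChRa3 (3.84), nAChRa1 (2.22) and nAChRa9 (0.81). nAChRa2 and nAChRa8 did not differ beyond their counting intervals. In ddH2O nAChRa2 stood first with 18.8 CPM per kb, before nAChRa6 (11.3), nAChRa7 (7.16), nAChRa8 (6.27), nAChRa4 (4.59), nAChRa3 (3.79), nAChRa1 (3.4) and nAChRa9 (0.32). nAChRa6 was therefore first or second and nAChRa9 last in both libraries, while nAChRa2 and nAChRa6 stood in the opposite order. Since nuclear RNA of a long gene holds many intronic sites and that of a compact gene few, this order depends on the length used.

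Across all kept nuclei 7 of the 8 subunits were lower in the BRC library and nAChRa9 was higher. nAChRa6 had 1647 CPM in BRC and 3535 CPM in ddH2O, a log2 ratio of BRC over ddH2O of -1.1 (interval -1.11 to -1.09). nAChRa7 had 412 and 1454 CPM (-1.82), nAChRa4 428 and 1006 CPM (-1.23), and nAChRa1 197 and 431 CPM (-1.13). The same direction held for nAChRa3 at 172 and 286 CPM (-0.73), nAChRa2 at 23.3 and 68.1 CPM (-1.55) and nAChRa8 at 11.6 and 19.6 CPM (-0.76). In contrast, nAChRa9 had 10.5 CPM in BRC and 1.54 CPM in ddH2O (2.77). At least 2-fold lower in BRC were 5 of the 8 (nAChRa1, nAChRa2, nAChRa4, nAChRa6 and nAChRa7), where 11.4% of the 10353 genes with at least 100 UMIs were, and at least 2-fold higher was 1, against 15.3% of all genes. The interval lay below 0 for 7, where it did so for 41.6% of all genes, and above 0 for 1 (43.1% of all genes). The summed subunits had 2901 CPM in BRC and 6801 CPM in ddH2O (-1.23, interval -1.24 to -1.22), and the neuron markers summed over the same nuclei had a ratio of -1.51. Neuron-like nuclei made up 24.7% of the kept nuclei in BRC and 46.8% in ddH2O, and in such a sum fewer nuclei of a type and less RNA per nucleus cannot be told apart. Glia-like nuclei made up 13.4% and 29.7%, and most kept BRC nuclei lay in clusters without a class. Among these were cluster 3 (3171 BRC and 347 ddH2O nuclei) and cluster 0 (2834 and 2376). In cluster 0 the neuron markers stood at 66.0% and 92.0% of the neuron-like level. The share called neuron-like therefore depends on how many nuclei could be named. The median log2 ratio of the 8 subunits was -1.12, beside 0.01 over all genes.

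**Figure D1:**
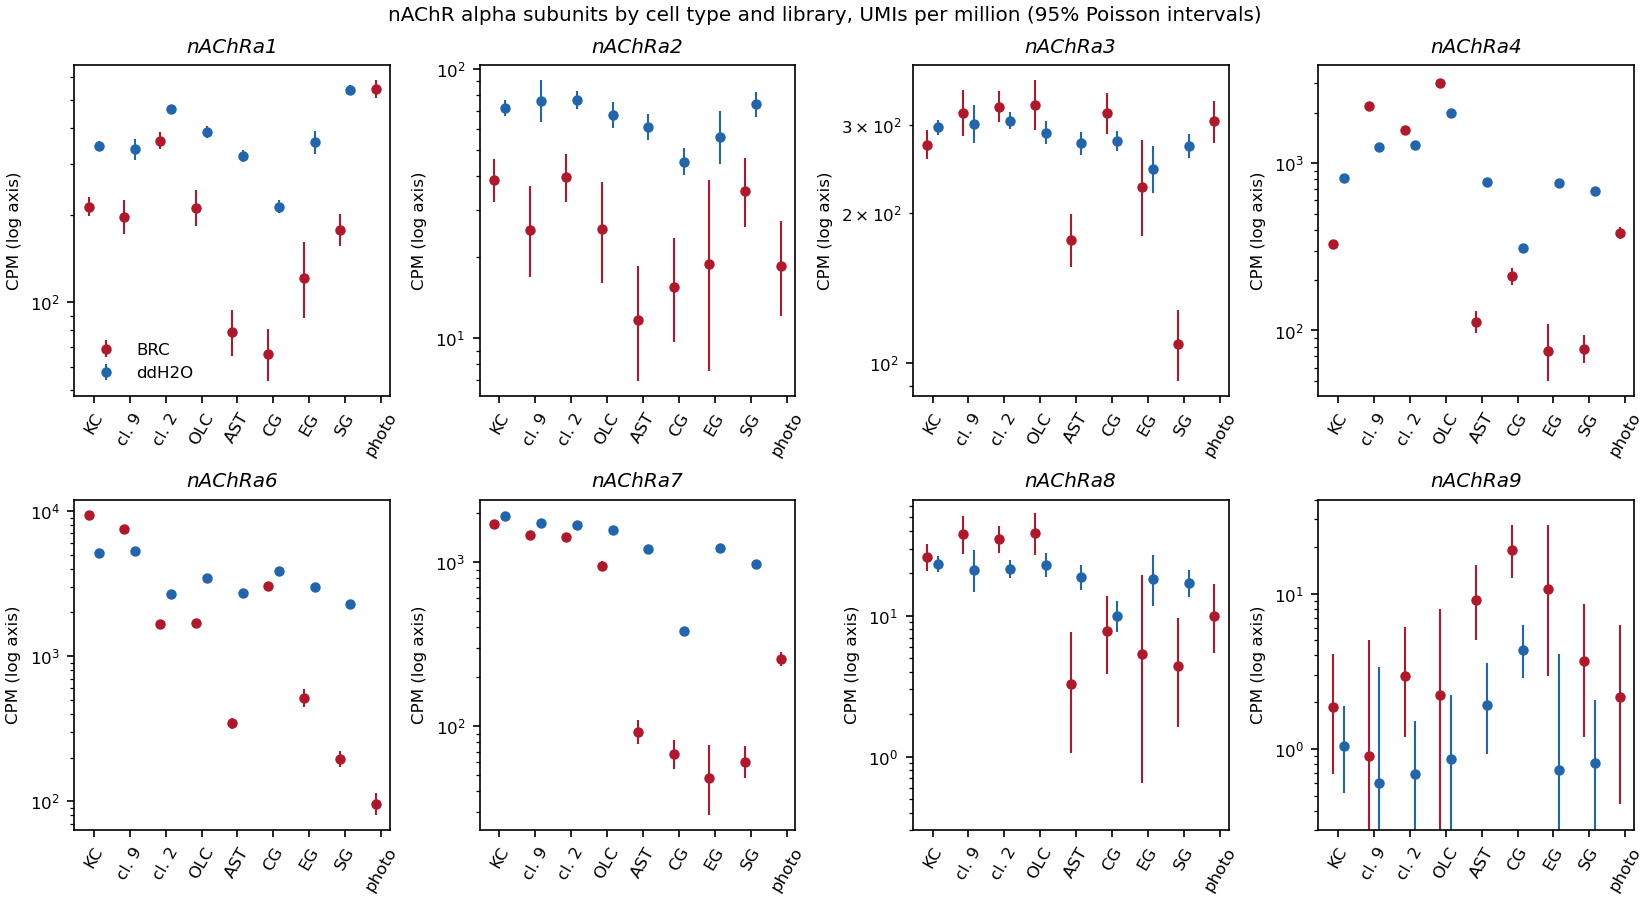
Level of each alpha subunit in CPM (log axis) by cell type in the BRC (red) and ddH2O (blue) libraries, with 95% Poisson intervals for counting error, where intervals that touch the lower edge of the panels run below it. cl. 9 and cl. 2 are neuron-like clusters without a type name and photo is the photoreceptor-like cluster, shown for BRC only. nAChRa6 reached 9343 CPM in BRC KC-like nuclei, and the spread over types was narrower in ddH2O for nAChRa4, nAChRa6 and nAChRa7.

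Within each library all subunits but nAChRa9 were higher in neuron-like than in glia-like nuclei, in BRC by wider margins. This does not place most of their RNA in neuron-like nuclei. Over all kept nuclei nAChRa1, nAChRa2 and nAChRa3 stood at 76.1%, 66.0% and 56.8% of the neuron-like level in BRC. In ddH2O they stood at 109%, 94.0% and 95.5%. In the BRC library nAChRa7 stood 21.0-fold higher in neuron-like than in glia-like nuclei (1485 and 70.8 CPM), nAChRa4 10.4-fold (1316 and 127 CPM), nAChRa8 6.79-fold (32.4 and 4.77 CPM) and nAChRa6 4.89-fold (5740 and 1173 CPM). The margins of nAChRa1 (2.46-fold), nAChRa2 (1.73-fold) and nAChRa3 (1.54-fold) were below that of the neuron markers (8.37-fold). In ddH2O the same 7 genes were higher in neuron-like nuclei, by between 1.12-fold for nAChRa3 and 2.09-fold for nAChRa4, beside 1.91-fold for the neuron markers. Only nAChRa4 and nAChRa7 (2.07-fold) exceeded the margin of the markers there. In SG-like nuclei of ddH2O nAChRa1 was above the neuron-like level (543 and 396 CPM). The interval lay above 0 for 7 of the 7 subunits with at least 100 UMIs in each library, where it did so for 24.6% of all genes in BRC and 35.7% in ddH2O. nAChRa9 was the exception and was lower in neuron-like than in glia-like nuclei, with 2.10 and 9.54 CPM in BRC (0.22-fold) and 0.84 and 2.31 CPM in ddH2O (0.36-fold).

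nAChRa6 belongs to the group of insect alpha subunits that resemble the vertebrate alpha7 receptor, and in Drosophila its counterpart is the target of the insecticide spinosad. In KC-like nuclei it had 9343 CPM in BRC, its highest level there, and 5169 CPM in ddH2O, a log2 ratio of 0.85 (0.83 to 0.87). Neuron-like cluster 9, which has the neuropeptide gene Tk among its leading genes in BRC, had 7480 CPM in BRC and 5295 CPM in ddH2O, the highest level of the ddH2O library. Cluster 2, which is rich in the glutamate receptor gene Glurb, had 1668 and 2692 CPM and the OLC-like nuclei 1699 and 3453 CPM. The KC-like level was thus 5.50-fold that of OLC-like nuclei in BRC and 1.5-fold in ddH2O, where the summed neuron markers differed by a log2 ratio of 0.32 and 0.14.

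The KC-like nuclei held 46.4% of all nAChRa6 UMIs of the BRC library on 8.17% of its UMIs, and 24.9% on 17.0% in ddH2O. After random thinning of every nucleus to 1000 UMIs, the median KC-like nucleus had 9 nAChRa6 UMIs in BRC (quartiles 6 and 12) and 5 in ddH2O (quartiles 3 and 7), and 42.1% and 8.40% had 10 or more. The ranges between the quartiles therefore overlapped only from 6 to 7 UMIs. A UMI of nAChRa6 was found in 98.8% of thinned KC-like nuclei in BRC and 97.9% in ddH2O, so that detection hardly differed while the level did. The OLC-like clusters were not alike: cluster 10 had 1122 CPM in BRC and 2778 CPM in ddH2O, whereas cluster 14, with 30 and 421 nuclei, had 5091 and 4652 CPM. The OLC-like ratio of nAChRa6, -1.02 in BRC over ddH2O, was 0.20 when nuclei were clustered at resolution 1.0, which regroups these clusters.

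CG-like nuclei were the glia with the most nAChRa6. They had 3053 CPM in BRC and 3858 CPM in ddH2O, where AST-like nuclei had 343 and 2726 CPM, EG-like nuclei 516 and 2977 CPM and SG-like nuclei 196 and 2281 CPM. CG-like over AST-like nuclei gave 8.89-fold in BRC and 1.42-fold in ddH2O, although the neuron markers were lower in CG-like nuclei (0.82-fold and 0.38-fold). Relative to neuron-like nuclei, CG-like nuclei carried 53.2% of the nAChRa6 level in BRC and 97.4% in ddH2O, against 10.5% and 26.8% of the neuron markers, 4.56% and 21.8% of nAChRa7, and 16.0% and 25.6% of nAChRa4. In AST-like nuclei of the ddH2O library, nAChRa4, nAChRa6 and nAChRa7 stood at 63.7%, 68.8% and 68.9% of the neuronal level, close to the 71.0% of the neuron markers. The other subunits stood above the markers there. nAChRa1 was at 80.7%, nAChRa2 at 84.4%, nAChRa3 at 92.2%, nAChRa8 at 83.1% and nAChRa9, on 10 UMIs, at 231%.

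The nAChRa6 UMIs of CG-like nuclei were spread over many nuclei. A UMI was found in 62.5% (57.0 to 67.8) of thinned CG-like nuclei in BRC and 90.1% (88.2 to 91.7) in ddH2O, compared with 16.0% (13.5 to 18.9) and 82.2% (80.1 to 84.1) of AST-like nuclei. Median depth before thinning was 3000 and 4927 UMIs in CG-like and 1690.5 and 3209 UMIs in AST-like nuclei. The tenth of CG-like nuclei with the most nAChRa6 held 41.2% of the thinned UMIs in BRC and 25.8% in ddH2O. The CG-like name rests on 1 own marker (zyd) with the glial markers, since wrapper matched no gene.

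Photoreceptor-like nuclei of the BRC library had the lowest nAChRa6 level of the 20 BRC clusters, 95.8 CPM or 1.67% of the neuron-like level. Their neuron markers summed to 80.6% of the neuron-like level but were uneven: Cac had 4241 CPM, against 2703 CPM in neuron-like nuclei of BRC, whereas nSyb had 722 and 2091 CPM and Para 1285 and 2899 CPM. In these nuclei nAChRa7 stood at 257 CPM and nAChRa4 at 382 CPM, 17.3% and 29.0% of the neuron-like level. nAChRa1 was at 544 CPM, its highest value among BRC clusters of at least 20 nuclei, and nAChRa3 at 305 CPM, as high as in neurons. Unnamed cluster 0 (2834 BRC nuclei) has the photoreceptor markers ninaC and trp among its leading genes in BRC. There nAChRa1 had 451 CPM and nAChRa6 863 CPM, 174% and 15.0% of the neuron-like level. In ddH2O, where these markers do not lead, cluster 0 had 191% and 100%. The ddH2O library had 5 such nuclei, too few to give a level.

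nAChRa4 is an alpha subunit of the group that forms heteromeric receptors, and its order between KC-like and OLC-like nuclei was the reverse of that of nAChRa6, while clusters 9 and 14 of BRC were high in both genes. OLC-like nuclei had 3014 CPM in BRC and 1987 CPM in ddH2O, cluster 9 had 2183 and 1246 CPM, and cluster 2 had 1585 and 1278 CPM. KC-like nuclei were lowest among the neuron-like types with 329 and 815 CPM, 0.11-fold the OLC-like level in BRC and 0.41-fold in ddH2O. Over the neuron-like clusters of at least 20 nuclei the highest exceeded the lowest level 10.6-fold in BRC and 3.03-fold in ddH2O. In unnamed cluster 8 of the BRC library nAChRa4 had 760 CPM beside 85 CPM of nAChRa7, at a neuron marker sum of 1142 CPM.

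The ratio of nAChRa4 between libraries depended on the cell type and on the clustering. In KC-like nuclei it was -1.31 (-1.40 to -1.22), and -0.27 without integration of the libraries. In OLC-like nuclei it was 0.60 (0.54 to 0.66), and -0.01 without integration. Over all neuron-like nuclei nAChRa4 had 1316 CPM in BRC and 1214 CPM in ddH2O (0.12), and with doublets kept the ratio was -0.01, so that no direction held there. A UMI of nAChRa4 was found in 20.4% of thinned KC-like nuclei in BRC and 51.6% in ddH2O, and in 77.2% and 75.9% of OLC-like nuclei.

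nAChRa7, which also belongs to the alpha7-like group, varied less over neuron-like clusters than nAChRa4 or nAChRa6. KC-like nuclei had 1700 CPM in BRC and 1922 CPM in ddH2O, cluster 9 had 1463 and 1741 CPM, cluster 2 had 1418 and 1684 CPM, and OLC-like nuclei had 948 and 1575 CPM. The highest neuron-like cluster exceeded the lowest 1.89-fold in BRC and 1.57-fold in ddH2O, a narrower range than that of nAChRa4 or nAChRa6. Over 20 BRC and 18 ddH2O cluster profiles its log2 level followed the summed neuron markers with a Pearson r of 0.89 in BRC and 0.97 in ddH2O, the highest of the 8 subunits in each library. The clusters of a library share its depth and its free RNA, and these correlations are given as a description. In glia-like nuclei nAChRa7 had 70.8 CPM in BRC and 843 CPM in ddH2O (-3.58), the lowest log2 ratio of the subunits there.

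**Figure D2:**
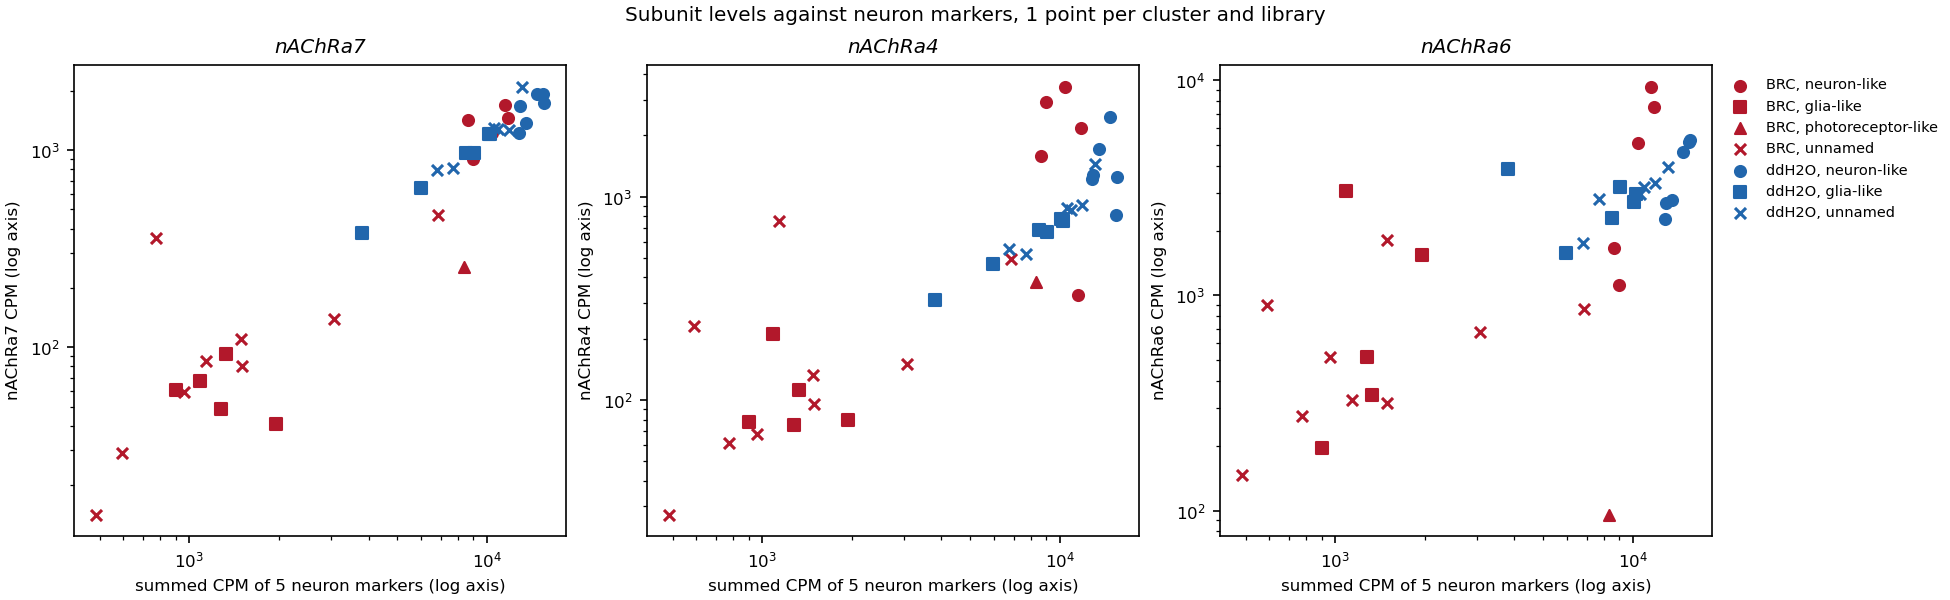
Levels of nAChRa7, nAChRa4 and nAChRa6 (CPM, log axes) against the summed CPM of the 5 neuron markers, with 1 point per cluster of at least 20 nuclei in the BRC (red) and ddH2O (blue) libraries and symbols for the class of the cluster. nAChRa7 follows the markers (r of 0.89 and 0.97) except in unnamed cluster 21 of BRC (359 CPM) and the photoreceptor-like cluster (257 CPM), whereas nAChRa6 has a photoreceptor-like point at 95.8 CPM far below and CG-like points at 3053 and 3858 CPM above the other clusters of like marker level.

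nAChRa1, nAChRa2 and nAChRa3 showed less contrast between types. nAChRa3 was nearly flat over neuron-like clusters, where the highest exceeded the lowest 1.21-fold in BRC and 1.1-fold in ddH2O, and neuron-like nuclei had 303 CPM in BRC and 299 CPM in ddH2O (0.02, interval -0.05 to 0.09). CG-like nuclei reached the same level with 317 and 279 CPM, where AST-like nuclei had 177 and 276 CPM and SG-like nuclei 109 and 272 CPM. nAChRa1 had 259 CPM in neuron-like nuclei of BRC and 396 CPM in those of ddH2O (-0.61, interval -0.68 to -0.54). Cluster 2 (361 and 465 CPM) and cluster 14 (463 and 510 CPM) were above the KC-like nuclei (214 and 348 CPM), and unnamed cluster 0 of ddH2O had the most, 758 CPM. The OLC-like ratio of nAChRa1, -0.87, was 0.06 without integration.

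SG-like nuclei were the glia with the most nAChRa1 and nAChRa2. nAChRa1 had 178 CPM in BRC and 543 CPM in ddH2O in SG-like nuclei, compared with 66.3 and 214 CPM in CG-like nuclei. These SG-like levels were 68.7% and 137% of those in neuron-like nuclei. nAChRa2 had 35.2 and 73.9 CPM in SG-like nuclei, which is 99.4% and 102% of the level in neuron-like nuclei (35.4 and 72.5 CPM). In contrast, the neuron markers in SG-like nuclei stood at 8.73% of the neuronal level in BRC and 59.7% in ddH2O. The name of this cluster is the least certain, since its leading genes in ddH2O include the OLC marker svp. Across all types nAChRa2 was lower in BRC, including KC-like (38.7 and 71.7 CPM, -0.89) and neuron-like nuclei (-1.03, interval -1.22 to -0.85).

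nAChRa8, which RefSeq also lists as Apisalpha3, was sparse. Neuron-like nuclei had 32.4 CPM in BRC and 22.7 CPM in ddH2O (0.51), on 247 and 599 UMIs. OLC-like nuclei had 38.6 and 22.9 CPM (0.75, interval 0.16 to 1.32) and KC-like nuclei 26.2 and 23.4 CPM, with an interval that held 0 (-0.21 to 0.53). In glia-like nuclei the direction was the opposite, with 4.77 CPM in BRC and 14.7 CPM in ddH2O (-1.62). A UMI was found in 3.11% of thinned neuron-like nuclei in BRC and 2.38% in ddH2O, so that the gene cannot be followed from nucleus to nucleus at this depth.

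nAChRa9 and its neighbour nAChRb2, subunits that diverge from the other honeybee nAChR genes, were the only receptor genes measured at a higher level in glia-like than in neuron-like nuclei of both libraries. nAChRa9 rested on 413 UMIs in BRC and 95 in ddH2O. The glial excess was not shared by all glial types. CG-like nuclei held 27 of the 50 glial UMIs of nAChRa9 in BRC and 28 of the 46 in ddH2O. In ddH2O SG-like nuclei had 0.81 CPM (4 UMIs) and EG-like nuclei 0.73 CPM (1 UMI), not above the 0.84 CPM of neuron-like nuclei. Cluster 6, whose leading genes include Crzr (the corazonin receptor) and which is nearly confined to BRC, had 45.3 CPM and held 60.3% of the BRC UMIs of nAChRa9 on 14.0% of all UMIs. CG-like nuclei had 19.1 CPM in BRC and 4.33 CPM in ddH2O and AST-like nuclei 9.12 and 1.93 CPM. KC-like nuclei were low with 1.87 and 1.05 CPM. Unnamed clusters 8, 17, 3, 19 and 16 of BRC had 11.4, 8.98, 7.89, 6.65 and 5.03 CPM. The higher level was thus not particular to glia-like nuclei. Unnamed clusters 0, 13 and 21 of BRC were low, with 1.67, 2.59 and 1.85 CPM. Glia-like cluster 12 had 0 CPM in BRC and 2.51 CPM in ddH2O. When clusters with fewer than 20 nuclei in either library were left out, an alternative chosen after the data were seen, the log2 ratio of nAChRa9 over all nuclei was 1.79 rather than 2.77, and within glia-like nuclei it was 2.05 (1.44 to 2.66).

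nAChRb2 had 10.3 CPM in glia-like nuclei of BRC and 2.61 CPM in those of ddH2O, and 1.83 and 1.67 CPM in neuron-like nuclei. SG-like nuclei were below the neuron-like level, with 0.73 CPM (1 UMI) in BRC and 1.01 CPM (5 UMIs) in ddH2O. EG-like nuclei had 29.6 CPM in BRC (11 UMIs, interval 14.8 to 52.9), the most of the named glial types there, and 0.73 CPM (1 UMI) in ddH2O. CG-like nuclei had 19.8 CPM in BRC (13.1 to 28.6) and 4.33 CPM in ddH2O. They held 28 of the 54 glial UMIs in BRC and 28 of the 52 in ddH2O. Among the BRC nuclei with a UMI of nAChRa9, 7.28% (4.85 to 10.4; 27 of 371) also had one of nAChRb2, compared with 1.08% (0.93 to 1.26) of the other nuclei. Median depth was 2794 UMIs in nuclei with nAChRa9 and 1880 in those without. Within cluster 6 the shares were 8.02% (4.74 to 12.53) and 3.64% (2.79 to 4.66), and in ddH2O 2.11% (0.26 to 7.40; 2 of 95) and 0.72%, a difference not detectable at this depth. The 2 genes lie 660 bp apart, and reads were assigned by the authors' counting.

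Of the 7 subunits with at least 100 UMIs in these groups, all but nAChRa9, the subunits went both ways between the libraries in neuron-like nuclei and were lower in BRC in glia-like nuclei, where nAChRa9 was higher (2.05). In neuron-like nuclei 1 of 7 subunits with at least 100 UMIs was 2-fold lower in BRC (nAChRa2), where 5.15% of all genes were, and none of the 7 was 2-fold higher, where 6.12% of all genes were. The interval lay below 0 for 3 (nAChRa1, nAChRa2 and nAChRa7; 36.8% of all genes) and above 0 for 3 (nAChRa4, nAChRa6 and nAChRa8; 28.1% of all genes). The median log2 ratio of all 8 subunits, with nAChRa9 on 16 and 22 UMIs included, was 0.07. Over all genes with at least 100 UMIs it was -0.06. The summed subunits, again with nAChRa9, had 9174 CPM in BRC and 7715 CPM in ddH2O (0.25, interval 0.24 to 0.26), and without nAChRa6 3434 and 3753 CPM (-0.13), so that the sign of the sum rested on nAChRa6. The summed ratio was 0.10 with doublets kept and 0.14 without integration of the libraries. The neuron markers in these nuclei had a ratio of -0.46. The make-up of the neuron-like nuclei also differed between libraries. Cluster 9, which is high in nAChRa6, held 670 of the 3922 in BRC and 536 of the 7817 in ddH2O. OLC-like nuclei numbered 390 and 1259, and OPN-like nuclei 13 and 218. Ratios over all neuron-like nuclei therefore mix levels within a type with the shares of types.

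Among the neuron-like types, KC-like nuclei had the higher sum in BRC, with 11926 and 8646 CPM (0.46, interval 0.45 to 0.48), where without nAChRa6 the sum was 2584 and 3478 CPM (-0.43), and with doublets kept the summed ratio was 0.30. At least 2-fold lower in BRC was 1 of 7 subunits (nAChRa4; 10.2% of all genes), and none was 2-fold higher (5.28%). The interval lay below 0 for 5 (38.7% of all genes) and above 0 for 1, nAChRa6 (21.1%). In OLC-like nuclei the sum was 6268 CPM in BRC and 7784 CPM in ddH2O (-0.31), 2 of 7 were 2-fold lower (nAChRa2 and nAChRa6; 9.21% of all genes) and none 2-fold higher (3.91%). The interval lay below 0 for 4 (28.4% of all genes) and above 0 for 2, nAChRa4 and nAChRa8 (17.6%). KC-like and OLC-like nuclei thus went opposite ways for nAChRa4 and nAChRa6, and the difference between them was not tested. Their neuron marker sums had ratios of -0.42 and -0.60. OPN-like nuclei numbered 13 in BRC, and none of the 5 subunits with at least 100 UMIs was past 2-fold there (12.2% of all genes lower, 3.3% higher). The interval lay above 0 for nAChRa4 and nAChRa6, where it did so for 7.68% of all genes, and below 0 for none (12.5%).

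In glia-like nuclei all 7 subunits with at least 100 UMIs had an interval below 0, where 30.1% of all genes did, and 6 of the 7, all but nAChRa3, were at least 2-fold lower in BRC, where 10.7% of all genes were. None of these 7 was 2-fold higher (10.8% of all genes) or had an interval above 0 (40.4%). Summed together with nAChRa9, the subunits had 1708 CPM in BRC and 5090 CPM in ddH2O (-1.58, interval -1.61 to -1.54), and the neuron marker sum had a ratio of -2.59. The part of the neuron marker difference in that of the subunits was not tested. AST-like nuclei had 6 of 7 subunits at least 2-fold lower (15% of all genes), SG-like nuclei 6 of 6 (17.1%) and EG-like nuclei 4 of 5 (21.8%), with neuron marker ratios of -2.92, -3.23 and -3.01. None of those tested was 2-fold higher in these types, where 10.3%, 9.2% and 8.21% of all genes were. CG-like nuclei had 3 of 6 (nAChRa1, nAChRa2 and nAChRa7; 8.34%), and there nAChRa6 had a ratio of -0.34 and nAChRa3 of 0.18, beside -1.81 for the neuron markers. Of the 6, none was 2-fold higher in BRC (6.82% of all genes), 5 had an interval below 0 (24.4%) and 1, nAChRa3, above 0 (29.4%). Without the CG-like cluster the glial sum had a ratio of -2.42, and without the SG-like cluster -1.32, both alternatives chosen after the data were seen.

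**Figure D3:**
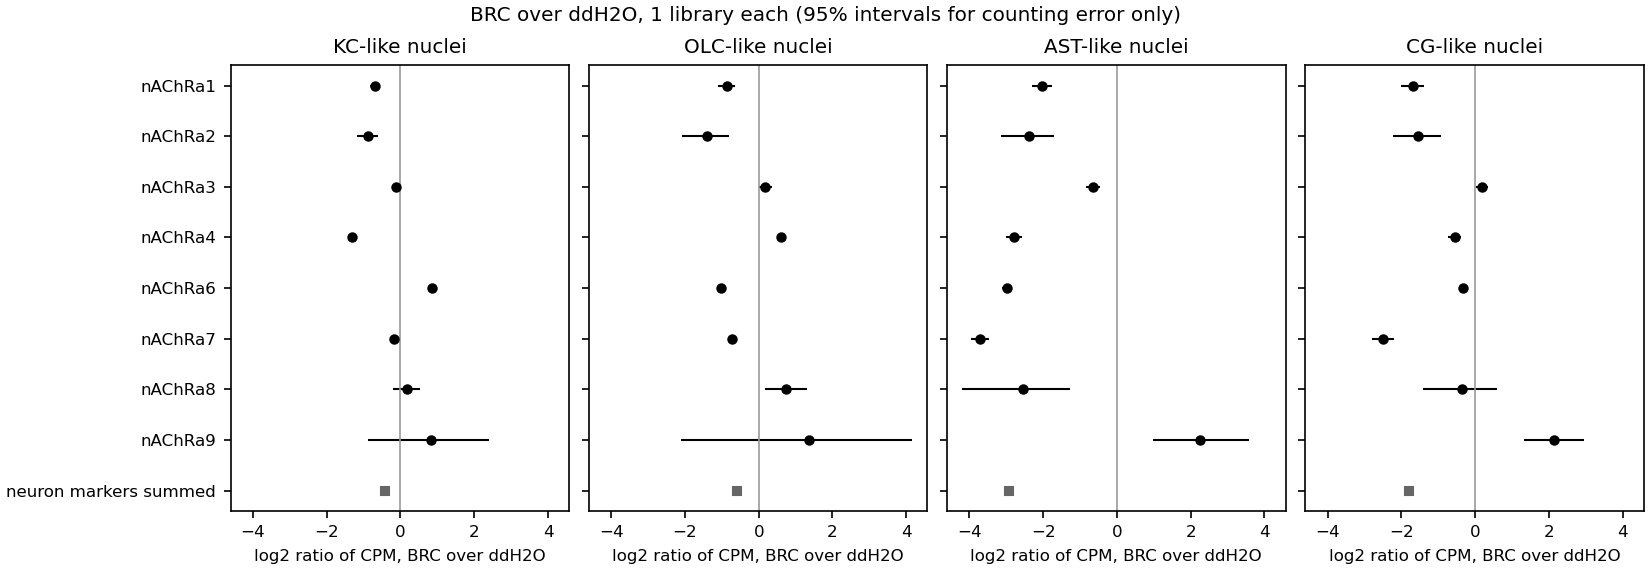
Log2 ratio of CPM in BRC over ddH2O for each alpha subunit in KC-like, OLC-like, AST-like and CG-like nuclei, with 95% intervals for counting error, and for the 5 neuron markers summed (squares). nAChRa6 lies at 0.85 in KC-like and -1.02 in OLC-like nuclei and nAChRa4 at -1.31 and 0.60, while in AST-like nuclei 7 of the 8 subunits lie below 0 with the neuron markers at -2.92.

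Most neuron-like nuclei held RNA of several alpha subunits. After thinning to 1000 UMIs, 84.2% (83.0 to 85.3) of neuron-like nuclei in BRC and 93.9% (93.3 to 94.4) in ddH2O had a UMI of 2 or more subunits, with a mean of 2.49 and 2.97 subunits per nucleus. Without thinning the shares were 92.6% and 99.9%, at a median depth of 1653 and 3078 UMIs. The same share was 85.3% and 95% in KC-like nuclei and 77.4% and 93.1% in OLC-like nuclei. In AST-like nuclei, taken as a type expected to lack neuronal receptors, 9.43% (7.43 to 11.8) of BRC and 82.8% (80.8 to 84.7) of ddH2O nuclei did so, at a median depth of 1690.5 and 3209 UMIs. The glial share was thus far below the neuronal one in BRC and close to it in ddH2O, and shares of ddH2O nuclei are read against that level. CG-like nuclei had 31.3% and 62.9% and photoreceptor-like nuclei of BRC 36.6%. No subunit was detected in 51.0% of glia-like nuclei in BRC and 3.06% in ddH2O, and in 1.96% and 0.26% of neuron-like nuclei.

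**Figure D4:**
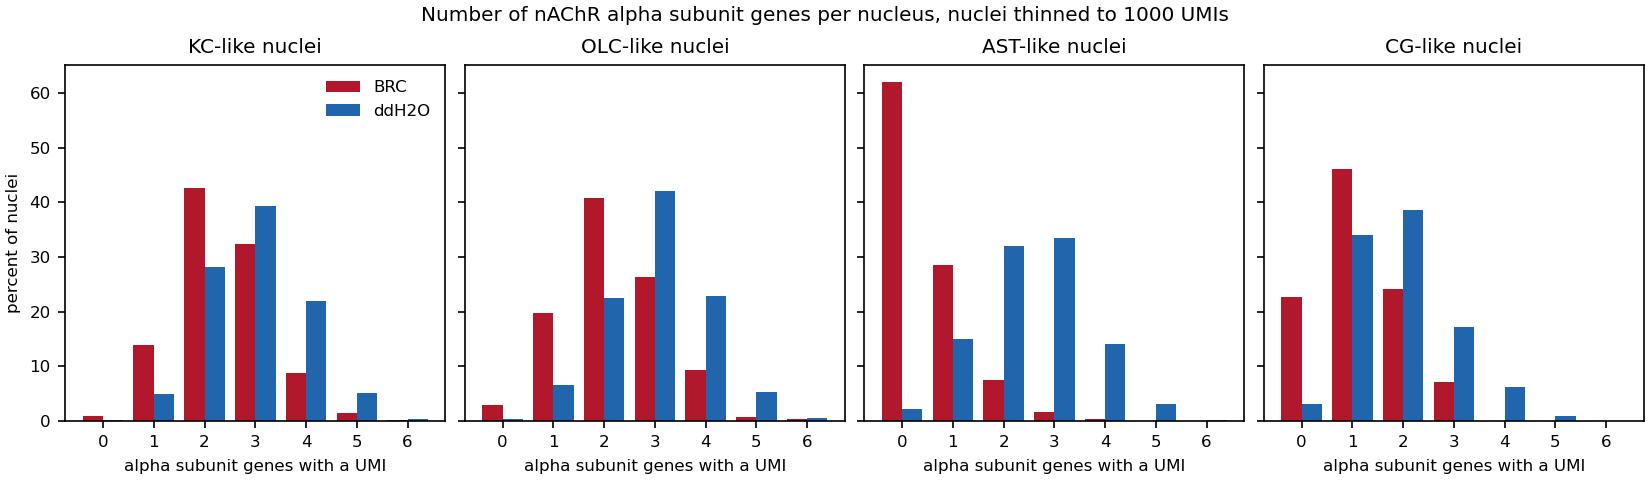
Percent of nuclei by the number of alpha subunit genes with a UMI, after thinning to 1000 UMIs, in the BRC (red) and ddH2O (blue) libraries for 4 types. KC-like and OLC-like nuclei centre on 2 or 3 subunits in both libraries, while AST-like nuclei have none in 62.0% of BRC and 2.15% of ddH2O nuclei.

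The combinations detected were mostly made of nAChRa4, nAChRa6 and nAChRa7, the longest loci (264.79, 349.9 and 244.16 kb). nAChRa2 and nAChRa8 span 3.85 and 3.63 kb. Detection was not scaled by gene length, so the sets below do not rank one subunit against another. In thinned neuron-like nuclei of BRC the most frequent set was nAChRa6 with nAChRa7 alone (17.2%), before nAChRa4, nAChRa6 and nAChRa7 (12.9%) and nAChRa6 alone (8.67%). In ddH2O the set of nAChRa4, nAChRa6 and nAChRa7 came first (20.2%) and nAChRa6 with nAChRa7 second (13.6%). All of nAChRa4, nAChRa6 and nAChRa7, with or without others, were found in 23.9% of neuron-like nuclei in BRC and 43.7% in ddH2O, and in 0.42% and 19.8% of glia-like nuclei. KC-like nuclei held nAChRa6 with nAChRa7 alone in 32.5% in BRC and 19.9% in ddH2O. OLC-like nuclei of BRC had nAChRa4 with nAChRa6 first (17.4%), followed by nAChRa4 with nAChRa7 (10.5%), and those of ddH2O the set of nAChRa4, nAChRa6 and nAChRa7 (25.1%).

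Pairs of subunits were next compared by asking how often one had a UMI in nuclei with and without the other. Over neuron-like nuclei of BRC, of the 28 pairs 20 had at least 20 nuclei with both, and the median ratio of the 2 shares was 1.02, with 3 pairs found together more often and 1 less often beyond their counting intervals. In ddH2O 20 pairs gave a median of 1.00, with 1 more and 1 less often. The pair found together less often in BRC was nAChRa4 and nAChRa6: a UMI of nAChRa6 was found in 74.5% (72.5 to 76.4) of nuclei with nAChRa4 and 87.6% (86.1 to 89.0) of those without. In ddH2O these shares were 91.1% (90.3 to 91.9) and 92.4% (91.4 to 93.3). nAChRa7 was found in 67.2% (65.6 to 68.9) of nuclei with nAChRa6 and 57.9% (54.2 to 61.5) of those without in BRC, and in 78.5% (77.5 to 79.4) and 72.4% (68.8 to 75.8) in ddH2O. These shares mix types that differ in level.

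Within KC-like nuclei the pairs among nAChRa4, nAChRa6 and nAChRa7 showed little structure in ddH2O, where nAChRa7 was found in 81.7% of nuclei with nAChRa6 and 82.4% of those without. In BRC 20 KC-like nuclei lacked nAChRa6, and nAChRa7 was found in 15.0% (3.21 to 37.9) of these and in 72.9% (70.7 to 75) of the others. Within OLC-like nuclei of BRC nAChRa6 and nAChRa7 parted: nAChRa7 was found in 24.9% (19.2 to 31.2) of nuclei with nAChRa6 and in 56.5% (48.9 to 63.9) of those without. nAChRa7 instead went with nAChRa4, in 43.9% (38.2 to 49.7) of nuclei with nAChRa4 and 23.6% (15.2 to 33.8) of those without, and nAChRa6 went against it, in 50.2% (44.4 to 56.0) and 69.7% (59.0 to 79.0). In ddH2O OLC-like nuclei the intervals of all 3 comparisons overlapped, as nAChRa7 was found in 72.8% (70.1 to 75.4) of nuclei with nAChRa6 and 66.2% (57.7 to 74.0) of those without. OLC-like nuclei are the sum of clusters 10 and 14, and nuclei of 1 library are not replicates.

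**Figure D5:**
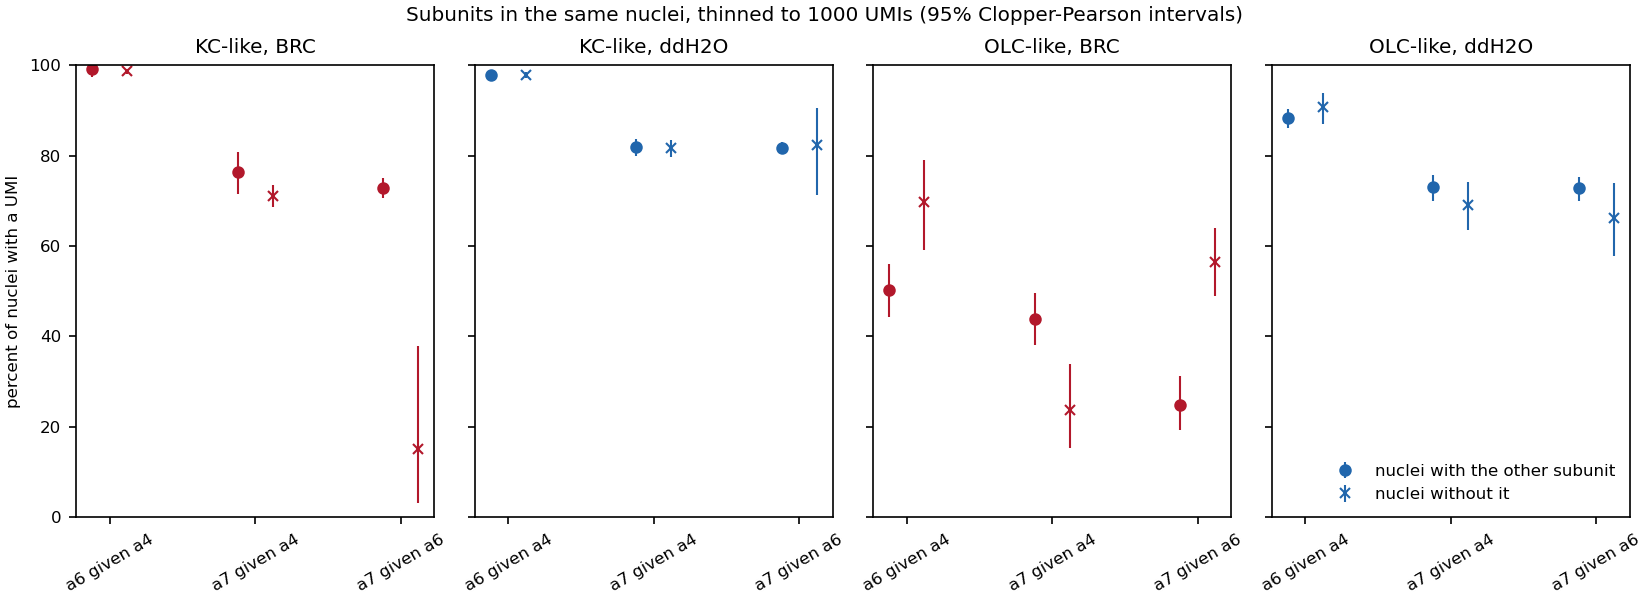
Percent of nuclei (thinned to 1000 UMIs) with a UMI of one subunit among nuclei with the other subunit (circles) and without it (crosses), with 95% Clopper-Pearson intervals, for KC-like and OLC-like nuclei of each library, where a6 given a4 stands for nAChRa6 in nuclei with or without nAChRa4. In OLC-like nuclei of BRC the circle and the cross part for all 3 pairs, as for nAChRa7 at 24.9% with and 56.5% without nAChRa6, and they overlap in ddH2O.

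Of the other genes of cholinergic transmission, 4 of the 9 terms searched matched a gene of the files: the beta subunits nAChRb1 and nAChRb2, LOC725064 (VAChT, which loads acetylcholine into vesicles) and AChE-2, an acetylcholinesterase, the enzyme class that breaks acetylcholine down. nAChRb1 was sparse, with 7.99 CPM in neuron-like nuclei of BRC and 15.3 CPM in those of ddH2O, and 0.76 and 8.83 CPM in glia-like nuclei. VAChT had 133 CPM in BRC and 175 CPM in ddH2O in neuron-like nuclei, and 17.9 and 104 CPM in glia-like nuclei. AChE-2 went the other way, with 724 and 1203 CPM in neuron-like and 2583 and 3239 CPM in glia-like nuclei, and was highest among named types in CG-like nuclei (3808 and 6079 CPM), the glia that also had the most nAChRa6. Over all kept nuclei nAChRb1, VAChT and AChE-2 were lower and nAChRb2 was higher in BRC, with log2 ratios of -1.89, -1.84, -1.31 and 1.41.

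Subunit levels were also compared between neuron-like nuclei with and without a UMI of VAChT, the marker of cholinergic neurons. Without thinning, VAChT was found in 19.4% of neuron-like and 3.79% of glia-like nuclei in BRC. In ddH2O it was found in 41.8% and 32.8%. The split therefore separates cholinergic from other neurons poorly in ddH2O, and ratios near 0 there do not show that their levels are alike. Neuron-like nuclei with a UMI of VAChT numbered 761 in BRC and 3265 in ddH2O, and those without 3161 and 4552. Nuclei were not thinned here. Median depth with and without VAChT was 1919 and 1615 UMIs in BRC and 3200 and 3011.5 UMIs in ddH2O. In BRC nAChRa6 had 5196 CPM in nuclei with VAChT and 5917 CPM in those without (-0.19), nAChRa4 1450 and 1273 CPM (0.19) and nAChRa7 1366 and 1523 CPM (-0.16). In ddH2O these 3 ratios were -0.01, 0.02 and -0.07. In BRC, nAChRa6 and nAChRa4 shifted the same way with VGlut, a marker of glutamatergic neurons (-0.14 and 0.22). With Vmat, a marker of monoaminergic neurons, they did so too (-0.24 and 0.21). nAChRa7 had 0.04 and -0.01 with these 2 markers. The BRC shifts of nAChRa6 and nAChRa4 were thus not particular to nuclei with VAChT. All were smaller than the differences between KC-like and OLC-like nuclei.

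The genes whose log2 level over the 38 cluster profiles of both libraries was most like that of each subunit were sought among 6424 genes with at least 500 UMIs in each library. For nAChRa7 this was LOC410613 (Pearson r of 0.97), for nAChRa2 LOC726118 (0.94) and CUTA (0.92), for nAChRa1 LOC550899 (0.92) and for nAChRa3 LOC100859932 (0.91) and brp (0.90), whose product in Drosophila builds the active zone of synapses. For nAChRa4 it was LOC100576569 (0.92) and for nAChRa6 LOC113218923 (0.91), a long non-coding RNA. nAChRa8 was closest to LOC410155 and nAChRa4 (0.89 for each), the one case of a member among the 3 nearest genes of another, and nAChRa9 had the loosest match, LOC725031 (0.77). The profiles of a library share its depth and free RNA, and within ddH2O alone r lay between 0.59 and 0.94 for these genes.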

How the data were processed

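Nuclei of 2 libraries, 1 per condition, had been prepared with the Chromium 3' v3.1 chemistry. The authors aligned reads to Amel_HAv3.1 and deposited UMI counts per gene and barcode. The submitters' processing notes name Cell Ranger 7.0.1, Seurat 5.1.0 and R 4.4.0. The header of the BRC matrix names Cell Ranger 7.2.0 and that of the ddH2O matrix 7.0.1. Whether intronic reads were counted is not given in the sources used here. Of 20000 barcodes each, the BRC matrix held 76531513 UMIs over 12635 genes and the ddH2O matrix 77047419 over 12245.

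Nuclei were kept with a ratio of log10 genes to log10 UMIs above 0.85, 200 to 5000 genes and under 5% mitochondrial UMIs. Of 18691 BRC and 19876 ddH2O nuclei, simulated-doublet scores removed 2795 and 3160 (0.8% per 1000 nuclei). Seurat 5.3.0 in R 4.3.3 integrated the libraries by canonical correlation over 50 components and clustered them at resolution 0.5, with the 8 subunit and 4 pathway genes kept out of the 1995 variable features. Clusters were named from the marker lists; the fold thresholds for naming (1.25 for glial, 1.5 for own and 1.1 for neuron markers) were set after the data were seen. The members, gene lists and markers were chosen with earlier results of these data known.

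Summed UMIs of each type and library were scaled to CPM. Levels have exact Poisson intervals, ratios have exact conditional binomial intervals and shares have Clopper-Pearson intervals, all at 95% (Python 3.11.15, scipy 1.17.1). They cover counting error only, and no p-value was computed. A gene entered the background with at least 100 UMIs over both libraries. For shares, each nucleus was thinned to 1000 UMIs, and 0 nuclei were left out. Genes named were the subunits, the matched pathway genes and the genes most like each subunit in their profile. Alternatives were doublets kept, no integration, resolution 1.0, nuclei over 500 genes, other scalings, thinning and a background minimum of 20 UMIs. The calculations were tested on simulated data.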

Additional observations from a re-analysis of the deposited data

Results flagged for a closer look

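KC-like were set against OLC-like and neuron-like against glia-like nuclei, and in 5 cases the log2 ratio of BRC over ddH2O of a subunit had opposite signs in the pair, with both counting intervals clear of 0. With 1 library per condition these differences were not tested. nAChRa4 had a ratio of -1.31 in KC-like and 0.60 in OLC-like nuclei, a difference of -1.91 between them. nAChRa6 went the other way, with 0.85 in KC-like and -1.02 in OLC-like nuclei, a difference of 1.88. Both pairs move with the clustering: nAChRa4 in OLC-like nuclei was -0.01 without integration and nAChRa6 in OLC-like nuclei 0.20 at resolution 1.0.

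Between neuron-like and glia-like nuclei, nAChRa4 had ratios of 0.12 and -2.20 (difference 2.32), nAChRa6 0.54 and -1.35 (difference 1.88) and nAChRa8 0.51 and -1.62 (difference 2.13). The neuron markers had ratios of -0.46 in neuron-like and -2.59 in glia-like nuclei, and their part in these differences was not tested.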

How the results depend on the processing

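No paired analysis was possible because each condition is 1 library, and for the same reason no replicate could be left out. Over all kept nuclei the summed ratio of -1.23 was -1.16 with doublets kept, -1.25 with median-of-ratios scaling, -1.24 without the 50 most abundant genes, -1.08 after thinning and -0.91 without clusters under 20 nuclei in either library. In neuron-like nuclei the ratio of 0.25 was 0.10 with doublets kept, 0.14 without integration, 0.18 at resolution 1.0, 0.19 with nuclei over 500 genes, 0.27 with median-of-ratios scaling, 0.31 without the 50 most abundant genes and 0.28 after thinning. In KC-like nuclei 0.46 was, under the same settings where it moved, 0.30 with doublets kept, 0.48 without integration, 0.44 at resolution 1.0, 0.56 with median-of-ratios scaling and 0.54 without the 50 most abundant genes. In glia-like nuclei -1.58 was -1.51 with doublets kept, -1.87 without integration, -1.51 at resolution 1.0, -1.73 with median-of-ratios scaling, -2.09 after thinning, -1.32 without the SG-like and -2.42 without the CG-like cluster, the leaving out of clusters being chosen after the data were seen. The share of neuron-like nuclei with 2 or more subunits was 86.4% in BRC and 94.7% in ddH2O without integration, 94.5% in ddH2O with nuclei over 500 genes, and 92.6% and 99.9% without thinning. Of 541 alternative values of 72 single-gene ratios, 410 stayed within counting error, 127 moved and 4 changed sign: nAChRa4 in neuron-like nuclei (-0.00716 with doublets kept), nAChRa1 (0.063) and nAChRa4 (-0.014) in OLC-like nuclei without integration, and nAChRa6 in OLC-like nuclei at resolution 1.0 (0.20). The cause was not tested. Leaving out the barcodes shared by the libraries gave summed ratios of -1.23, 0.25, 0.46 and -1.57 over all, neuron-like, KC-like and glia-like nuclei. The counts limit nAChRa8 and nAChRa9 most, with 454 and 413 UMIs in BRC and 1206 and 95 in ddH2O. With a background minimum of 20 in place of 100 UMIs, the share of all genes at least 2-fold higher in BRC was 8.65% against 5.28% in KC-like, 7.58% against 3.91% in OLC-like, 9.13% against 3.3% in OPN-like and 11.5% against 6.82% in CG-like nuclei. In OPN-like nuclei the share with an interval below 0 was 4.39% against 12.5% and that with one above 0 was 4.82% against 7.68%, and nAChRa2 (1 and 49 UMIs) was then called 2-fold lower and nAChRa8 (3 and 25 UMIs) 2-fold higher in BRC.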
